A study of Mus musculus with 21 samples.

Results

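Binding of the glucocorticoid receptor (GR) to liver chromatin was compared between C57BL/6J mice kept at 7% oxygen for 24 hours and mice kept at 21% oxygen, all injected with PBS and none with a glucocorticoid drug. The comparison rests on 6 of the 18 GR ChIP-seq libraries of the series, which holds 21 samples with its inputs: the 3 libraries of the 24h hypoxia PBS group and the 3 of the normoxia PBS group. Hypoxic mice received PBS, went back to 7% oxygen and were sampled 2 hours after the injection, while normoxic mice received the same injection in normal air. Chromatin came from snap-frozen whole liver crosslinked with formaldehyde, and the precipitation used a rabbit antibody against GR. The series design gives 3 biological replicates per group; sex, age and whether animals were pooled were not given in the labels used here. Dexamethasone (DEX) groups and the group kept at 7% oxygen for 6 hours enter below only as context for single sites.

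GR is a nuclear receptor that stays in the cytoplasm until a glucocorticoid binds it, then enters the nucleus and sits on DNA at paired inverted repeats, whose core is written here as ACANNNTGT. Mice make their own glucocorticoid, corticosterone, so livers of animals given only PBS still hold some DNA-bound receptor. In liver the receptor is known for driving genes of gluconeogenesis and amino acid breakdown and for inducing genes such as Fkbp5, the co-chaperone that lowers its hormone affinity, and Per1, a component of the circadian clock. Low oxygen acts mainly through the hypoxia-inducible factors (HIF), a separate set of transcription factors.

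Merging the peaks of the 6 lists wherever they shared 1 bp or more gave 3994 sites on mm10, each named for the nearest protein-coding gene of the RefSeq annotation with the distance from the site's centre to the gene's span. Of these sites, 66 carried a peak in all 6 libraries. Normoxia PBS replicate 1 stood apart from the other 5 libraries: it held 43645787 tags, against 8667179 to 16500568 in the others, its peaks were 280 bp wide against 187 to 194 bp, and it alone kept 2 tags per position where the others kept 1. It contributed 3617 sites that no other library held, and 68.8% of these lay within 1 kb of an end of a protein-coding gene, against 9.09% of the 66 sites common to all libraries. Without it, the other 5 lists formed 377 sites, and the sites common to all 5 were the same 66. Results for the whole comparison are therefore given with it and without it, as are most estimates for single sites.

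Where the receptor sat could be read from sequence only at sites that reached a RefSeq promoter window (build GRCm38.p6), since no genome sequence was used. Of 182 sites called in at least 2 of the 24h hypoxia PBS libraries or in both normoxia PBS replicates 2 and 3, 8 overlapped such a window, and 4 of these stretches held the letters ACANNNTGT or TGTTCT. They are shown because each is the part of a promoter under a peak and holds a receptor-type motif. They run 5′ to 3′ on the promoter's strand, and capitals mark the motif. Both motifs were searched on both strands, and the 2 patterns overlap in a full receptor element. The Lpp site (chr16:25059389-25059527, plus strand) belongs to the promoter of the RNA gene A230028O05Rik and was called in all 6 libraries. The Parp4 site (chr14:56620533-56620763, minus strand, promoter of Gm16573) and the Ptgds site (chr2:25478369-25478587, minus strand, promoter of Gm35287) were called in 2 of 3 24h hypoxia PBS and 3 of 3 normoxia PBS libraries. The Myo1e site (chr9:70243165-70243306, minus strand, promoter of Gm26849) was called in 0 of 3 24h hypoxia PBS and 3 of 3 normoxia PBS libraries.
Lpp site: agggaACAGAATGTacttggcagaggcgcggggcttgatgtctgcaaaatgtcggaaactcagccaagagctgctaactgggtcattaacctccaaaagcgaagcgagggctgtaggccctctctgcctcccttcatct
Parp4 site: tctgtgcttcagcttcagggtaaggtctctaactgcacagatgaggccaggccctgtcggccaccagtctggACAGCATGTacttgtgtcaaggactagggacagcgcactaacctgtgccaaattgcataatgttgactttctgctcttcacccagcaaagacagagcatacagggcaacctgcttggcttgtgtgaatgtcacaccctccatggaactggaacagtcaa
Ptgds site: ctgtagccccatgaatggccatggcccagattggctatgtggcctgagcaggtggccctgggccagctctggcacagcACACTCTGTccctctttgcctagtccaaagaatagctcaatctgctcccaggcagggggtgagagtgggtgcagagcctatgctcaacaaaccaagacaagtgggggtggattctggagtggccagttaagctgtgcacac
Myo1e site: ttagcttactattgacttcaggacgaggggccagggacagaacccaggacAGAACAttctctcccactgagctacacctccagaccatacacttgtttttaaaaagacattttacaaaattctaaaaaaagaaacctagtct
The ACANNNTGT match lay 11 bp from the peak centre at Lpp, 14 bp at Parp4 and 4 bp at Ptgds. At Myo1e the match was AGAACA, the reverse complement of TGTTCT, 51.5 bp from the centre. Of 32851 promoters, 3.46% held ACANNNTGT in a stretch as long as the one at Lpp, 5.45% at the length of Parp4 and 5.20% at that of Ptgds, and 9.70% held TGTTCT on either strand at the length of Myo1e. In whole windows the shares were 6.85% and 19.0%. Each share is for the motif that matched, while every stretch was searched for both. The share with either motif was not computed and cannot be lower. The Ptgds site reached several windows, and only the stretch with a match is shown. These matches are letters in a window and do not show which bases the receptor touched.

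The number of GR peaks did not separate the groups. The 24h hypoxia PBS libraries held 260, 153 and 78 peaks, against 3915, 145 and 343 in normoxia PBS replicates 1, 2 and 3. The ratio of geometric means, 24h hypoxia over normoxia, was 0.252 with all 6 libraries (exact two-sided permutation test, p = 0.3) and 0.654 without normoxia PBS replicate 1 (exact permutation p = 0.6). With 3 libraries against 3 this test cannot go below 0.1, and with 3 against 2 not below 0.2. The caller's minimum of 50 tags stood for 49.6, 42.6 and 51.9 normalized tags (scaled to 10000000 tags per library) in the 24h hypoxia PBS libraries, against 11.5, 57.7 and 30.3 in the normoxia PBS libraries. Held to the highest of these minima in every library, the lists had 236, 113 and 76 peaks in 24h hypoxia PBS, against 44, 145 and 174 in normoxia PBS, and the ratio turned to 1.22 with 6 libraries (exact permutation p = 0.7) while it stayed below 1 without normoxia PBS replicate 1, at 0.797 (exact permutation p = 0.8).

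The share of a library's tags that fell in its peaks was 0.388%, 0.201% and 0.150% in 24h hypoxia PBS, against 0.684%, 0.211% and 0.349% in normoxia PBS. The difference of means was -0.168 percentage points with 6 libraries (exact permutation p = 0.4) and -0.033 without normoxia PBS replicate 1 (exact permutation p = 0.8). At the 66 common sites the median tag count was 179, 116 and 84.7 in 24h hypoxia PBS, against 46.9, 154 and 131 in normoxia PBS. The 24h hypoxia libraries averaged 126 ± 47.9 (SD, n = 3), against 111 ± 56.4 (n = 3) in normoxia, or 142 ± 16.4 (n = 2) without replicate 1. The log2 difference was 0.30 with 6 libraries (exact permutation p = 0.7) and -0.24 without normoxia PBS replicate 1 (exact permutation p = 0.8), so its direction turned on that library. Among the 24h hypoxia libraries alone the median level spanned 84.7 to 179, more than the gap between the group means. In whole-liver chromatin, fewer cells with bound receptor and less receptor per cell cannot be told apart.

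**Figure D1:**
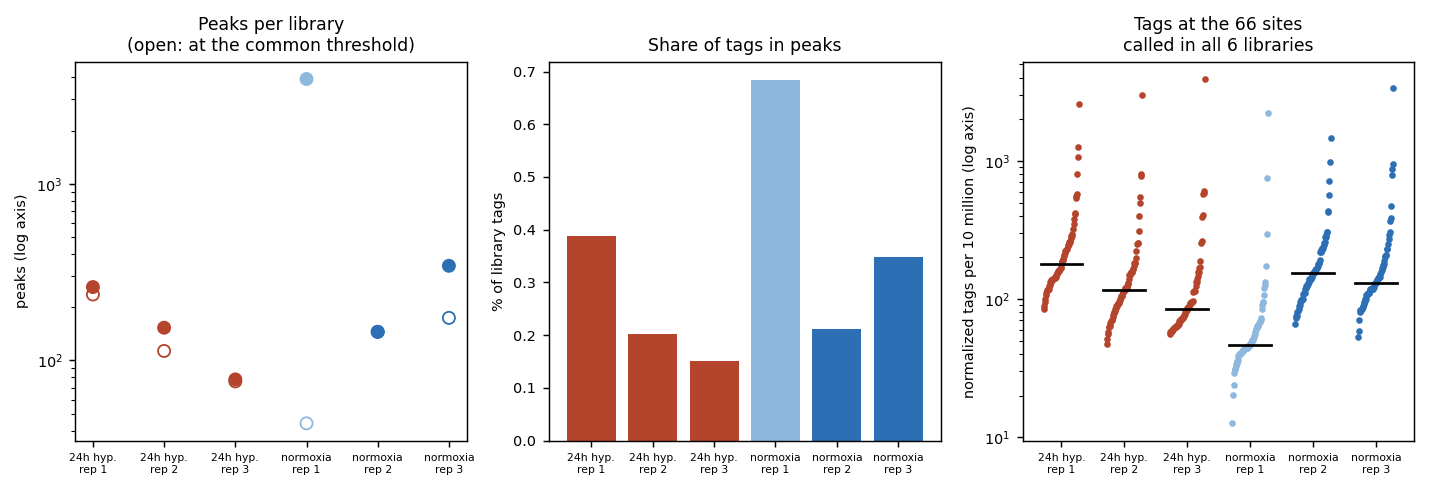
Number of peaks per library on a log axis (open circles, peaks at the common threshold of 57.7 normalized tags), share of library tags in peaks, and normalized tags at the 66 common sites (points, sites in rising order; black line, median), with 24h hypoxia PBS in red and normoxia PBS in blue. The pale blue library, normoxia PBS replicate 1, has 3915 peaks and the lowest median, 46.9 normalized tags, while the other 5 medians lie between 84.7 and 179.

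Among the 66 common sites, the highest mean tag count over the 6 libraries was on the mitochondrial genome, 316 bp from CYTB, with 2566.4, 3009.3 and 3918.4 tags in 24h hypoxia PBS, against 2223.1, 1467.6 and 3400.5 in normoxia PBS. It was enriched only 5.91-fold to 17.5-fold over input, against a median over the 66 sites of 67.7 for the median fold per site, and the Cr2 site was likewise low, at 4.57-fold to 10.1-fold. At both, normoxia PBS replicate 1 lay within the range of the other 5 libraries, and the Cr2 site had 800.2, 551.9 and 584.9 tags in 24h hypoxia PBS, against 747.8, 435.0 and 948.5 in normoxia PBS. These 2 sites are in the fits below with no adjustment for input.

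Among sites with high enrichment, the one 85979 bp from Ptpn1, the gene of a phosphatase that dampens insulin receptor signalling, led with 1271.8, 808.6 and 606.7 tags in 24h hypoxia PBS, against 126.0, 974.9 and 872.7 in normoxia PBS. A site inside Klf13, which encodes a Krüppel-like transcription factor, had 1059.3, 783.9 and 579.7 tags in 24h hypoxia PBS, against 296.5, 717.6 and 789.1 in normoxia PBS. The deposited values of the groups overlapped at both sites, while after centring all 24h hypoxia libraries lay above all normoxia libraries at this Ptpn1 site, with 6 libraries and with 5. Without normoxia PBS replicate 1 the group means at Klf13 were 808 ± 241 (SD, n = 3) in 24h hypoxia PBS and 753 (n = 2) in normoxia PBS. The other common sites among the 10 highest were inside Adk (adenosine kinase) and Per1, near Armc12 beside Fkbp5, near Lpp, near St3gal5 (the ganglioside GM3 synthase) and near Zfp36 (tristetraprolin, which destabilises inflammatory messenger RNAs). Their means in 24h hypoxia PBS ran from 492 ± 87.4 at Adk to 280.5 ± 126 at Zfp36 (SD, n = 3). The normoxia PBS means were 405 ± 207 at Adk and 208 ± 98.6 at Zfp36 (SD, n = 3). Without normoxia PBS replicate 1 they were 521 ± 66.3 and 265 ± 9.26 (SD, n = 2), so at Adk normoxia then lay above 24h hypoxia.

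Most of the common sites were also held by the DEX groups: 65 of the 66 sites were called in 3 of 3 libraries of 24h hypoxia with DEX, and 65 in 3 of 3 of normoxia with DEX. Zfp36 averaged 1004 ± 232 tags in 24h hypoxia DEX (SD, n = 3), against 280.5 ± 126 in 24h hypoxia PBS. The Lpp site averaged 258 ± 73.2 tags in 24h hypoxia DEX, against 287 ± 82.6 in 24h hypoxia PBS. DEX counts and values, here and below, are descriptions without the share over all sites and were not tested.

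No common site passed the test across all of them. With each library centred on its median, 0 of 66 sites were higher and 0 were lower in 24h hypoxia PBS at an adjusted p of 0.05 (limma with Benjamini-Hochberg adjustment; 0% called in each direction), both with 6 libraries and without normoxia PBS replicate 1. At an unadjusted p under 0.05 there were 8 higher and 5 lower with 6 libraries, and 5 higher and 4 lower with 5. The lowest adjusted p was 0.124 with 6 libraries and 0.145 with 5 (limma). Leaving out 24h hypoxia PBS replicate 1 from the 5, which left 2 libraries against 2, gave 2 of 66 sites higher and 1 of 66 lower. The higher ones were Cdkn2aipnl and the mitochondrial CYTB site of low fold over input, and the lower one was Ttpal. A wider choice of 139 sites, called in at least 2 libraries of each group, gave 1 of 139 lower with 6 libraries (Trim2, log2 change -1.07, limma adjusted p = 0.0367). In that setting each library was centred on those of the 139 sites it held. Estimates of the common sites shifted down together there, as at Cdkn2aipnl (0.63, against 0.74) and Mycl (0.52, against 0.63). The log2 changes ran from -0.96 to 0.74 with 6 libraries, with a median of 0.05 and a median standard error of 0.20. Centring takes out the difference between the library medians, 0.30 on the log2 scale with 6 libraries and -0.24 with 5, so every change below is relative to the other common sites. Without it the median change over the 66 sites was 0.34 with 6 libraries and -0.11 with 5. As deposited, the groups did not overlap at 1 site where 24h hypoxia was above (1.52%) and 0 where it was below (0%) with 6 libraries, and at 1 above (1.52%) and 6 below (9.09%) with 5. After centring they did not overlap at 10 sites above (15.2%) and 7 below (10.6%) with 6 libraries, and at 14 above (21.2%) and 9 below (13.6%) with 5. A common site needed a peak in every library, so sites too low in 24h hypoxia PBS replicate 3, which held 78 peaks, are absent from all these counts. Of 142 sites called in both normoxia PBS replicates 2 and 3, that library held 67. The counts and changes therefore describe only sites high enough to be called in each library.

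**Figure D2:**
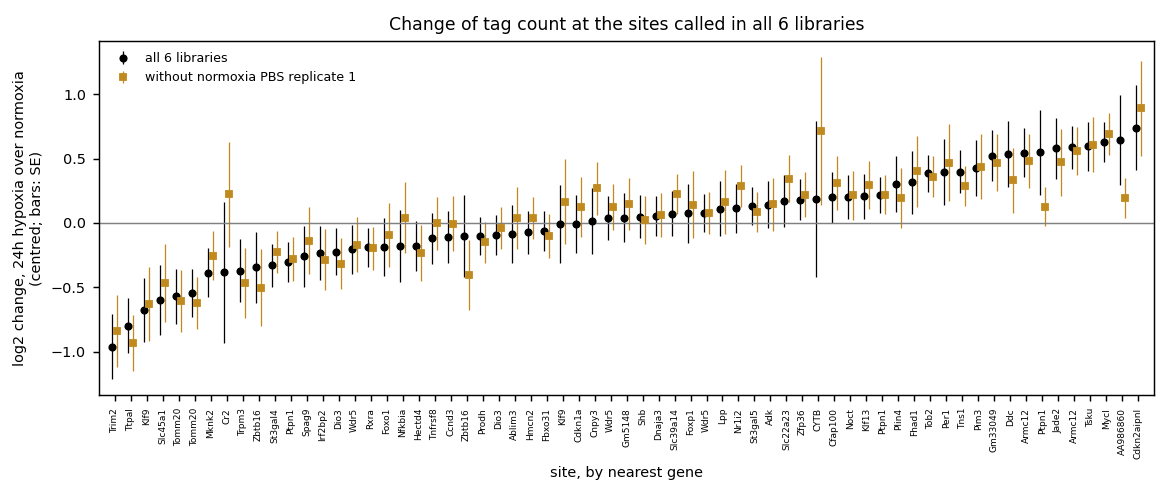
Centred log2 change, 24h hypoxia PBS over normoxia PBS, at 65 of the 66 common sites in the order of the fit on 6 libraries (black circles) with the fit without normoxia PBS replicate 1 (ochre squares); bars are standard errors. The estimates run from -0.96 at Trim2 to 0.74 at Cdkn2aipnl, 0 pass the adjusted threshold in either fit, and Cr2 and CYTB have the widest bars.

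The highest estimate with 6 libraries lay on chromosome 11. At chr11:51916060-51916340, 51431 bp from Cdkn2aipnl, tags were 167.8, 163.8 and 134.0 in 24h hypoxia PBS, against 44.2, 72.7 and 132.1 in normoxia PBS. This was the single site where all deposited values of 24h hypoxia lay above all of normoxia, the closest pair being 134.0 and 132.1. The fitted change there was 0.74 ± 0.33 on the log2 scale (SE; limma adjusted p = 0.251) with 6 libraries and 0.89 ± 0.37 (limma adjusted p = 0.350) with 5. After centring the groups overlapped there. The second site of this stretch lay 15370 bp from Jade2, which encodes a subunit of a histone acetyltransferase complex. It had 118.1, 107.5 and 58.2 tags in 24h hypoxia PBS, against 20.2, 65.8 and 89.7 in normoxia PBS. The log2 change at this second site was 0.58 ± 0.24 with 6 libraries and 0.47 ± 0.26 with 5.

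The Fkbp5 locus carried 3 sites, for which Armc12 is the nearer gene. The nearest to Fkbp5, at chr17:28512744-28513036 and 26.7 kb from its span, had 203.5, 104.9 and 76.9 tags in 24h hypoxia PBS, against 29.3, 110.8 and 80.0 in normoxia PBS. The strongest, at chr17:28518047-28518327 and 32.0 kb away, had 560.9, 400.9 and 262.8 tags in 24h hypoxia PBS, against 94.9, 291.9 and 369.7 in normoxia PBS. As deposited the groups overlapped at both, while after centring all 24h hypoxia libraries lay above all normoxia libraries at both. The log2 changes were 0.59 ± 0.17 (limma adjusted p = 0.129) and 0.55 ± 0.19 (limma adjusted p = 0.184) with 6 libraries, and 0.56 ± 0.19 and 0.48 ± 0.21 with 5. At the third site, 37.0 kb from Fkbp5, peaks were called in 3 of 3 24h hypoxia PBS libraries, with 149.9, 104.1 and 115.3 tags, and in normoxia PBS replicates 1 and 3, with 34.4 and 70.3 tags.

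Mycl is a MYC family transcription factor gene. Its site at chr4:122979876-122980156, 15572 bp from the gene, had 125.1, 86.1 and 60.3 tags in 24h hypoxia PBS, against 23.8, 75.0 and 53.3 in normoxia PBS. Relative to each library's median over the common sites, the levels were 0.70, 0.742 and 0.712 in 24h hypoxia PBS, against 0.508, 0.487 and 0.407 in normoxia PBS. The groups did not overlap on this scale, and the log2 change was 0.63 ± 0.16 (limma adjusted p = 0.124) with 6 libraries and 0.69 ± 0.16 (limma adjusted p = 0.145) with 5. Tsku, the gene of a secreted protein made by liver, had 226.4, 181.7 and 88.3 tags in 24h hypoxia PBS at its site 31250 bp away, against 40.3, 120.0 and 117.6 in normoxia PBS. Its log2 change was 0.59 ± 0.19 with 6 libraries and 0.61 ± 0.21 with 5.

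Some high estimates were smaller without normoxia PBS replicate 1. The AA986860 site had a log2 change of 0.64 ± 0.35 with 6 libraries and 0.20 ± 0.15 with 5, and the strongest Ptpn1 site had 0.55 ± 0.33 and 0.13 ± 0.15. A site inside Ddc, the gene of aromatic L-amino acid decarboxylase, had 0.54 ± 0.26 with 6 libraries and 0.33 ± 0.25 with 5. The sites 10149 bp from Pim3, a survival kinase gene, and 3764 bp from its neighbour Gm33049 had estimates of 0.43 ± 0.22 and 0.52 ± 0.20 with 6 libraries and 0.44 ± 0.25 and 0.47 ± 0.22 with 5. In the fit without normoxia PBS replicate 1, Per1 reached 0.47 ± 0.30, against 0.39 ± 0.26 with all libraries. The mitochondrial CYTB site reached 0.72 ± 0.57 without that library and 0.18 ± 0.61 with it, a standard error wider than the second estimate.

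The lowest estimates were at Trim2, Ttpal and Klf9. At chr3:84324993-84325273, 16781 bp from Trim2, the gene of a ubiquitin ligase, tags were 95.3, 46.9 and 62.3 in 24h hypoxia PBS, against 58.2, 130.4 and 145.4 in normoxia PBS. The log2 change was -0.96 ± 0.25 (limma adjusted p = 0.124) with 6 libraries and -0.84 ± 0.28 (limma adjusted p = 0.276) with 5. Without normoxia PBS replicate 1 the deposited values did not overlap, every 24h hypoxia library lying below both others.

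Ttpal encodes a protein related to the vitamin E transfer protein. Its site at chr2:163596046-163596326, 6099 bp away, had 191.6, 104.1 and 62.3 tags in 24h hypoxia PBS, against 60.3, 233.1 and 249.7 in normoxia PBS. The log2 change was -0.80 ± 0.21 (limma adjusted p = 0.124) with 6 libraries and -0.93 ± 0.22 (limma adjusted p = 0.145) with 5. Klf9, a Krüppel-like factor gene that glucocorticoids induce, had 2 sites less than 1 kb apart with different estimates. At chr19:23134973-23135272, 6104 bp from the gene, tags were 84.4, 55.4 and 72.7 in 24h hypoxia PBS, against 46.3, 133.8 and 120.6 in normoxia PBS. The log2 change there was -0.68 ± 0.25 (limma adjusted p = 0.184) with 6 libraries and -0.63 ± 0.29 with 5. At chr19:23135831-23136111, 5255 bp from the gene, tags were 132.0, 115.2 and 139.2 in 24h hypoxia PBS, against 63.7, 154.6 and 117.6 in normoxia PBS. The log2 change at this nearer site was -0.01 ± 0.30 with 6 libraries and 0.16 ± 0.33 with 5. Whether the pair differ from each other was not tested.

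The 3 common sites of a stretch of chromosome 8 between Irf2bp2 and Tomm20 all had negative estimates. The pair 121940 and 122982 bp from Tomm20, which encodes an import receptor of the mitochondrial outer membrane, had log2 changes of -0.54 ± 0.18 and -0.57 ± 0.21 (limma adjusted p = 0.184 for both) with 6 libraries, and -0.62 ± 0.20 and -0.61 ± 0.24 with 5. At the nearer, chr8:126808584-126808864, tags were 133.0, 69.9 and 71.7 in 24h hypoxia PBS, against 44.4, 160.4 and 156.4 in normoxia PBS. The site 142666 bp from Irf2bp2 had -0.23 ± 0.21. Slc45a1 (a sugar transporter gene, 33080 bp) had -0.60 ± 0.27 with 6 libraries, where normoxia PBS replicate 2 held 429.2 tags and the other 5 libraries 114.3 to 240.3. Relative to the library medians, its levels were 1.35, 1.57 and 1.35 in 24h hypoxia PBS, against 2.58, 2.79 and 1.37 in normoxia PBS. Smaller negative estimates stood at Mknk2, a kinase gene of translation control (-0.39 ± 0.19), at Trpm3 (-0.37 ± 0.24) and at Cr2 (-0.38 ± 0.55), and the last was 0.22 ± 0.41 without normoxia PBS replicate 1. The 2 common sites inside Zbtb16, a zinc finger repressor gene strongly induced by glucocorticoids, had -0.34 ± 0.28 and -0.10 ± 0.32 with 6 libraries and -0.50 ± 0.30 and -0.40 ± 0.27 with 5. The lower of the 2 Dio3 sites had -0.22 ± 0.18 with 6 libraries and -0.31 ± 0.19 with 5.

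**Figure D3:**
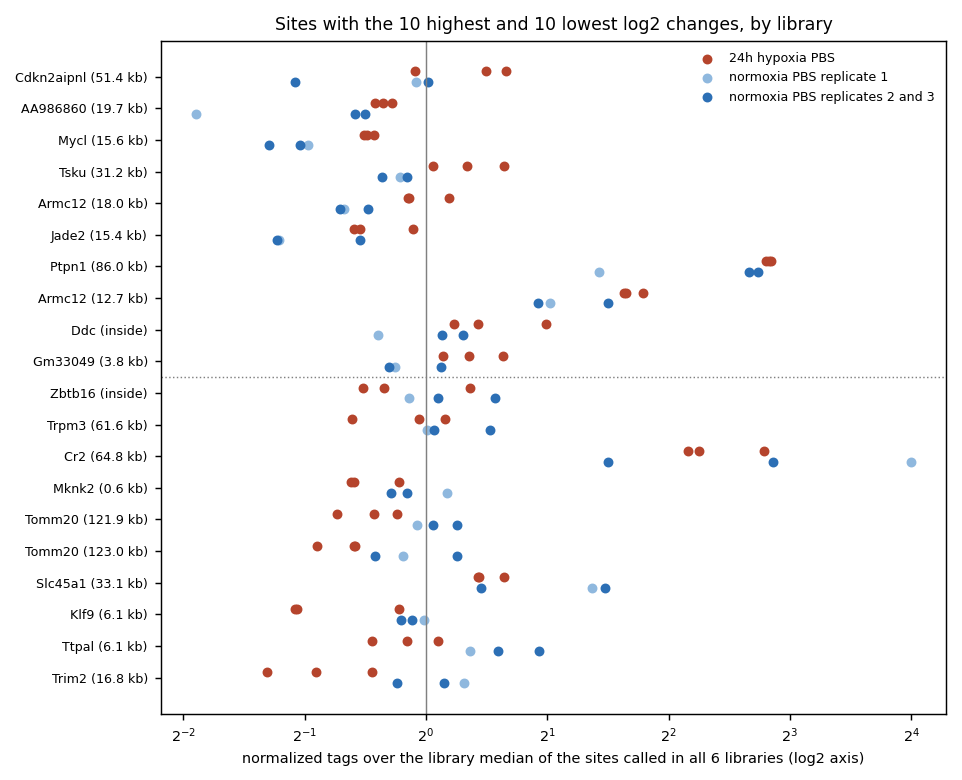
Normalized tags at the sites with the 10 highest (above the dotted line) and the 10 lowest log2 changes of the fit on 6 libraries, each divided by its library's median over the 66 common sites (log2 axis), with the nearest gene and distance. Red points are the 3 24h hypoxia PBS libraries, pale blue is normoxia PBS replicate 1 and dark blue are replicates 2 and 3. At Mycl the red points lie between 0.70 and 0.742 and the blue points between 0.407 and 0.508, while at Cr2 the groups overlap widely.

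Sites called in every library of one group and in none of the other were rare. In all 3 of the 24h hypoxia PBS libraries and no normoxia PBS library there were 0 of 3994 sites (0%), and against normoxia PBS replicates 2 and 3 alone 0 of 377 (0%). In the other direction, 8 sites had a peak in every normoxia PBS library and none in 24h hypoxia PBS, which is 0.2% of the 3994 sites and, on the 5 lists, 2.12% of 377. With 3 libraries against 3, Fisher's exact test for a single site cannot go below 0.1, so these are counts with no test. The count of 8 became 70 without normoxia PBS replicate 2 and 28 without 24h hypoxia PBS replicate 1, and the 0 in the first direction became 3 without 24h hypoxia PBS replicate 3. Fewer libraries had to agree in these counts, and their shares over all sites were not computed. The 70 rest on normoxia PBS replicates 1 and 3, where a peak needed 11.5 and 30.3 tags, against 42.6 to 51.9 in the 24h hypoxia PBS libraries. At the common threshold the 8 became 1, and at a caller score of at least 100 they became 2. With every list held to the 78 peaks of the shortest, the direction turned, with 2 sites in 24h hypoxia PBS alone and 0 in normoxia PBS alone. Of 142 sites called in both normoxia PBS replicates 2 and 3, the 24h hypoxia PBS libraries held 133, 111 and 67, in the order of their share of tags in peaks, and normoxia PBS replicate 1 held 138. In turn, all 78 sites of 24h hypoxia PBS replicate 3 were present in normoxia PBS replicate 3.

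**Figure D4:**
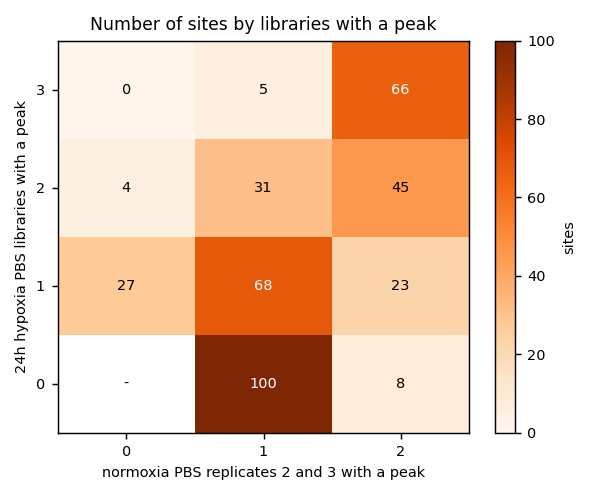
Number of sites by how many of the 3 24h hypoxia PBS libraries (vertical) and how many of normoxia PBS replicates 2 and 3 (horizontal) held a peak, over the 377 sites of these 5 libraries. The cell for 3 and 2 libraries holds 66 sites, the cell for 3 and 0 holds 0, and the cell for 0 and 2 holds 8.

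The 8 sites without a peak in 24h hypoxia PBS lay near Cps1, Ell2, Slc45a1, Cyp2b19, Blm and Gclc and inside Jarid2 and Myo1e. The Cps1 site, 18399 bp from the gene of carbamoyl-phosphate synthetase, the entry enzyme of the urea cycle, had 22.7, 91.1 and 47.3 tags in normoxia PBS replicates 1, 2 and 3. The Gclc site, 51642 bp from the gene of the enzyme that limits glutathione synthesis, had 17.4, 64.6 and 53.9 tags. The Myo1e site, one of the promoter sequences printed above, had 30.5, 99.2 and 65.5 tags in normoxia PBS. At 3 of the 8, those near Ell2, Slc45a1 and Cyp2b19, normoxia PBS replicate 3 had 35.2, 30.9 and 38.8 tags, below the 42.6 to 51.9 that a peak needed in the 24h hypoxia PBS libraries. Jarid2, which encodes a partner of the Polycomb complex PRC2, was the one site over 57.7 tags in every normoxia PBS library, with 167.3, 108.5 and 131.5, and it was only 4.33-fold to 5.97-fold over input. After DEX in 24h hypoxia, 5 of the 8 sites were called in 3 of 3 libraries, with 242 ± 45.2 tags at Cps1, 240 ± 70.1 at Myo1e and 219 ± 42.9 at Blm (SD, n = 3). After DEX in normoxia, 6 of the 8 were called in 3 of 3 libraries.

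A peak in 2 of 3 24h hypoxia PBS libraries and in neither normoxia PBS replicate 2 nor 3 was found at 4 sites, all held by 24h hypoxia replicates 1 and 2, and 3 of them had no peak in normoxia PBS replicate 1 either. Inside Hif3a, the gene of a hypoxia-inducible factor that can restrain the others, the tags were 71.5 and 51.2 in 24h hypoxia PBS. Inside Alas1, the gene of the rate-limiting enzyme of heme synthesis, they were 89.4 and 54.6, and inside Pitpnm2 they were 98.3 and 49.5. The fourth, inside Nhej1, had 69.5 and 49.5 tags in 24h hypoxia PBS, against 15.1 in normoxia PBS replicate 1. The replicate 2 values lay between 49.5 and 54.6, where the caller's minimum was 42.6, and those of replicate 1 between 69.5 and 98.3, where it was 49.6. The site in Hif3a was called in 3 of 3 libraries of 6h hypoxia PBS, at 217 ± 229 tags (SD, n = 3). After DEX it had 599 ± 192 tags in 24h hypoxia and 597 ± 124 in normoxia (SD, n = 3 each).

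Peaks in 3 of 3 24h hypoxia PBS libraries and in only 1 of normoxia PBS replicates 2 and 3 stood at 5 sites. Inside Klf15, a Krüppel-like factor gene that glucocorticoids induce and that promotes amino acid breakdown, tags were 118.1, 57.1 and 67.5 in 24h hypoxia PBS, against 32.5 and 71.5 in normoxia PBS replicates 1 and 3. A second Klf15 site, 17514 bp from the gene, was held by fewer 24h hypoxia PBS libraries, with 114.2 and 69.1 tags in replicates 1 and 2, against 14.4, 72.7 and 63.0 in normoxia PBS. The third Fkbp5 site, given above, was another. The other 3, at Hjurp, Csf2ra and a second mitochondrial position 694 bp from CYTB, were 4.20-fold to 8.45-fold over input in the libraries that held them.

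Gene lists set these sites in context, by counting genes that are the nearest gene of a site. Of 26 classical glucocorticoid-induced genes, 12 (46.2%) had a site called in at least 1 24h hypoxia PBS library, against 1.03% of all 21900 protein-coding genes. In at least 2 24h hypoxia PBS libraries the count was 9 of 26, in both normoxia PBS replicates 2 and 3 it was 10, and in all 6 libraries it was 6, against 0.589%, 0.553% and 0.260% of all genes. The 6 were Per1, Zbtb16, Klf9, Cdkn1a, Nfkbia and Zfp36, and Fkbp5 is left out of every count because its sites lie nearer Armc12. Their 8 common sites had a median log2 change of -0.05 with 6 libraries and 0.08 with 5, against 0.05 and 0.12 over the 66 sites, and 0 of 8 passed the test.

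Estimates of the list's members ran in both directions in both fits. At Per1 the tags were 541.1, 309.6 and 392.7 in 24h hypoxia PBS, against 132.4, 303.4 and 388.5 in normoxia PBS. The log2 change there was 0.39 ± 0.26 with 6 libraries and 0.47 ± 0.30 with 5. Cdkn1a, the gene of the cell cycle inhibitor p21, had 264.1, 183.4 and 123.6 tags in 24h hypoxia PBS, against 84.8, 166.1 and 232.1 in normoxia PBS. Its log2 change was -0.01 ± 0.22 with 6 libraries and 0.12 ± 0.23 with 5. Nfkbia, which encodes the inhibitor of NF-kappaB, had 145.0, 51.2 and 59.2 tags in 24h hypoxia PBS, against 45.4, 91.1 and 83.0 in normoxia PBS. Its log2 change was -0.18 ± 0.28 with 6 libraries and 0.04 ± 0.27 with 5. At Cdkn1a and Nfkbia the sign thus turned without normoxia PBS replicate 1. The groups overlapped at each of these 3 sites. Errfi1, Pik3r1 and Klf15 completed the 9 genes with a site in at least 2 24h hypoxia PBS libraries. The Errfi1 site 98211 bp away had 182.7 and 88.7 tags in 24h hypoxia PBS replicates 1 and 2, against 54.1, 201.9 and 127.9 in normoxia PBS, and the Pik3r1 site had 72.5 and 50.3, against 16.3 and 43.6 in normoxia PBS replicates 1 and 3. Bcl6 and Igfbp1 had a site in both normoxia PBS replicates 2 and 3 and in a single 24h hypoxia PBS library, at 86.4 and 87.4 tags. Mt1, a metallothionein gene, had 59.6 tags in 24h hypoxia PBS replicate 1, against 21.1 and 55.1 in normoxia PBS replicates 1 and 3. Tsc22d3, which encodes the anti-inflammatory protein GILZ, had no peak in 24h hypoxia PBS and 21.5 and 40.0 tags in those normoxia libraries. Both Tsc22d3 values lay below the 42.6 to 51.9 tags that a peak needed in the 24h hypoxia PBS libraries.

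Zbtb16 held 6 sites inside its span that were called in at least 2 libraries of either group. Besides the 2 common ones, the site at chr9:48723725-48724005 had 159.8 and 72.5 tags in 24h hypoxia PBS replicates 1 and 2, against 16.7, 167.3 and 83.0 in normoxia PBS. The remaining 3 were called in 24h hypoxia PBS replicate 1 alone of its group, with 94.3, 96.3 and 67.5 tags. Replicate 3 of 24h hypoxia PBS, the library with the fewest peaks, held only the 2 common sites.

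Of 19 genes of gluconeogenesis and amino acid breakdown, 4 (Foxo1, Pck1, G6pc and Gpt) had a site in at least 1 24h hypoxia PBS library, against 1.03% of all genes, and 3 had one in both normoxia PBS replicates 2 and 3, against 0.553%. In at least 2 libraries the count was 1 in 24h hypoxia PBS, against 0.589% of all genes, and 6 in normoxia PBS, against 1.12%. Of these 6, G6pc, Got1 and Gpt2 reached 2 normoxia libraries only through the deeper replicate 1, where the minimum was 11.5 tags. The 1 gene in 24h hypoxia PBS was Foxo1, the forkhead factor that insulin switches off. Its site 251118 bp from the gene had 293.9, 130.5 and 81.0 tags in 24h hypoxia PBS, against 73.3, 191.5 and 175.1 in normoxia PBS, and a log2 change of -0.19 ± 0.23. The Pck1 site, 378 bp from the gene of the enzyme that commits carbon to glucose, had 67.5 tags in 24h hypoxia PBS replicate 1 and no peak in replicates 2 and 3, against 26.8, 84.2 and 77.0 in normoxia PBS. Got1, an aminotransferase gene, had no peak in 24h hypoxia PBS and 22.0 and 83.1 tags in normoxia PBS replicates 1 and 2. G6pc, which encodes the enzyme that releases free glucose, had 62.5 tags in 24h hypoxia PBS replicate 1, against 23.1 and 52.1 in normoxia PBS replicates 1 and 3, and Gpt2, another aminotransferase gene, had no peak in 24h hypoxia PBS and 21.3 and 69.1 tags in the same normoxia libraries.

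Of 26 HIF target genes, 1 had a site in at least 2 24h hypoxia PBS libraries, Hif3a, against 0.589% of all genes, and 0 had one in both normoxia PBS replicates 2 and 3, against 0.553%. Ldha, the lactate dehydrogenase gene, had no peak in 24h hypoxia PBS and 19.0 and 35.2 tags in normoxia PBS replicates 1 and 3. Both values lay below the 42.6 to 51.9 tags that a peak needed in the 24h hypoxia PBS libraries. In the lists of fatty acid oxidation (24 genes), clock (19), acute phase (24), bile acid and xenobiotic metabolism (18) and liver transcription factors (16), 1, 1, 1, 1 and 2 genes had a site in at least 2 24h hypoxia PBS libraries, where the share of all genes was again 0.589%. These were Lpin1, Per1, Nfkbia, Nr1i2, and Rxra with Nr1i2 in the last. Per2, Lbp and Nr0b2 had a peak in 24h hypoxia PBS replicate 1, with 70.5, 60.6 and 65.5 tags, against 45.5, 54.5 and 53.9 in normoxia PBS replicate 3. Orm1 had none in 24h hypoxia PBS, against 34.5 in normoxia PBS replicate 3, again below what a peak needed in the 24h hypoxia PBS libraries. Lpin1, a phosphatidate phosphatase gene, had 168.8 and 97.2 tags in 24h hypoxia PBS replicates 1 and 2, against 34.1, 198.4 and 80.0 in normoxia PBS. Nr1i2, the xenobiotic receptor PXR, had 151.9, 98.9 and 65.4 tags in 24h hypoxia PBS, against 45.4, 110.8 and 83.0 in normoxia PBS, and Rxra, its partner receptor, had 163.8, 93.8 and 64.4, against 43.5, 139.6 and 129.7. At both genes the deposited values overlapped, with log2 changes of 0.11 ± 0.19 and -0.19 ± 0.15 with 6 libraries, and 0.29 ± 0.16 and -0.20 ± 0.17 with 5. After centring without normoxia PBS replicate 1, all 24h hypoxia libraries lay above both normoxia libraries at Nr1i2.

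Peaks do not measure expression, so cell types could be set beside the results only as lists of genes near sites. On the 5 lists, 0 of 15 Kupffer cell and leukocyte markers, 0 of 14 endothelial markers and 0 of 16 stellate cell and cholangiocyte markers had a site, against 1.41% of all genes. Of 15 hepatocyte markers, Cps1 and Alb had one, with 0 called in 24h hypoxia PBS, against 1.03% of all genes. The part of a change in cell make-up in any of the values above was not tested.

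**Figure D5:**
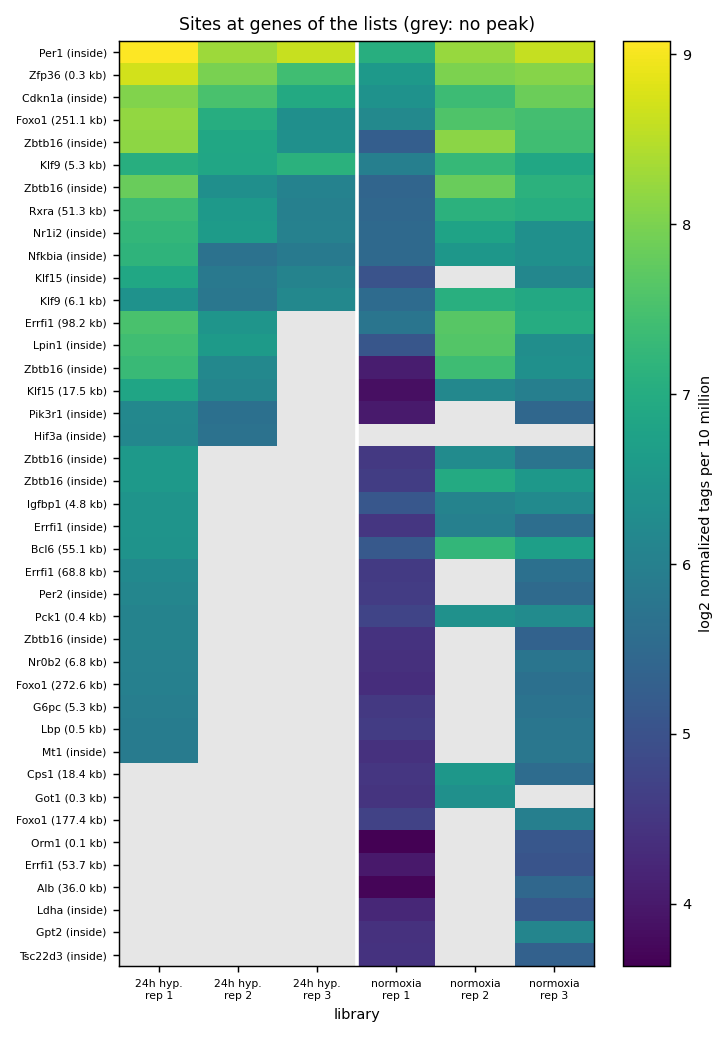
Normalized tags (log2 colour scale) at the sites of list genes called in at least 2 libraries of either group, by library, 24h hypoxia PBS in the 3 left columns and normoxia PBS in the 3 right ones; grey means that no peak was called. Rows are in order of the number of 24h hypoxia PBS libraries with a peak. The column of 24h hypoxia PBS replicate 3 ends after the Klf9 row, and Hif3a is the row with no peak in any normoxia PBS library.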

How the data were processed

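Liver GR ChIP-seq peak lists of 3 24h hypoxia PBS and 3 normoxia PBS libraries were compared. Per the submitters' processing notes, reads were handled with Trimmomatic, BWA 0.7.17, SAMtools 1.10 and HOMER on mm10. Per the file headers, peaks were called in each library alone with HOMER findPeaks at a minimum of 50 tags, at least 4-fold over input and over the surrounding 10 kb, with a Poisson p of 1e-04. The deposited normalized tag count is a signal scaled to 10000000 tags per library, and it is the value used here. The authors' lists also hold tag counts per peak (whole counts, except in normoxia PBS replicates 1 and 3, where they are scaled to the input), the caller's score, and the ratio (fold) over input; the score served only as a threshold and the fold only as a description. Values are of called peaks: a site without a peak in a library has no value there, not 0.

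Overlapping peaks (1 bp) were merged into sites, and the highest peak in a site gave a library's value. Nearest genes came from RefSeq (GRCm38.p6, 21900 protein-coding genes), and the files and this table were joined on chromosome names of the same build. Sites called in every library were fitted with limma 3.58.1 (R 4.3.3) on log2 values centred on the library median, with no pseudocount and Benjamini-Hochberg adjustment over all such sites; the fit was tested on simulated data. Values per library went through exact permutation tests, two-sided (Python 3.11.15, scipy 1.17.1). No 2 lists were identical. The number of tags per library limits what a peak list can hold, and p-values measure the spread between these libraries. Intervals cover counting error only: the share of peaks within 1 kb of a gene end was 9.23%, 10.5% and 10.3% in 24h hypoxia PBS, against 64.4% (95% Wilson interval 62.9% to 65.9%), 8.97% and 12.2% in normoxia PBS.

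Named sites were every one past the threshold and the 10 largest changes in each direction in both fits, the 10 highest by mean, those called in all of one group and none of the other, and list genes with a site in at least 2 libraries of a group. Sites in 2 of 3 24h hypoxia libraries, or in 1 of normoxia PBS replicates 2 and 3, and the promoter motifs fall outside this rule and were chosen after their values were seen. The members and the gene lists were chosen with earlier results of these data known. One site is not reported here. Ero1l and Tf were matched as Ero1a and Trf. Other thresholds, filters, scalings, site definitions, a replicate block and leaving out each library were tried as alternatives.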

Additional observations from a re-analysis of the deposited data

How the results depend on the processing

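Of the values for whole comparisons, 83 kept their direction or count under an alternative, 13 moved and 4 turned round; for the named sites, 431 kept their call and direction, 7 passed the threshold and 3 turned round. At the common threshold the log2 difference in peaks was 0.29, the share of tags 0.037 and the share near gene ends 0.161 percentage points, all turned round, and the sites in every normoxia PBS library and no 24h hypoxia PBS library numbered 1; at a caller score of at least 100 they numbered 2. Held to the shortest list of 78 peaks, 2 sites were in 24h hypoxia PBS alone and 0 in normoxia PBS alone. Leaving out each library in turn gave log2 differences in peaks of -2.99 to -0.61, in share of tags of -0.270 to -0.033, in median tags of -0.24 to 0.60 (-0.24, turned round, without normoxia PBS replicate 1) and in peaks near gene ends of -28.4 to -0.62 percentage points. Sites in 24h hypoxia alone numbered 0 to 3, the 3 without 24h hypoxia replicate 3 and 1 without normoxia replicate 3, and sites in normoxia alone 8 to 70, with 70 without normoxia replicate 2 and 28 without 24h hypoxia replicate 1; fewer libraries had to agree in these counts.

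With sites called in at least 2 libraries of each group (139 sites), 1 was lower on 6 libraries, Trim2 at -1.07 (limma adjusted p = 0.0367). Centring there used the sites each library held, which shifted the estimates of the common sites down together. What this shift did to the call at Trim2 was not tested. Same-numbered deviations had correlations of -0.38, -0.03 and -0.02, while differently numbered ones ran from -0.44 to 0.48. With so wide a scatter, these values cannot show whether the replicate numbers pair the libraries. With the replicate block the count was 0 higher and 0 lower on 6 libraries, and 2 higher and 1 lower on 5: Cdkn2aipnl 1.12, CYTB 1.14 and Ttpal -1.06 (limma adjusted p = 0.0179 for each). On 5 libraries, 24h hypoxia PBS replicate 1 has no normoxia library of its number, so the block takes it out of the contrast. Leaving that library out therefore gave the same estimates and the same 3 sites, and the 2 settings are not separate support. Leaving out each 24h hypoxia library in turn from the 5 gave 0 to 2 sites higher and 0 to 1 lower. Over the leave-one-out fits on 6 libraries the counts stayed at 0. Among the followed sites, leaving out 1 library turned round Cr2 (-1.03 to 0.22 on 6 libraries, 0.22 without normoxia replicate 1). On 5 libraries, leaving out normoxia replicate 2 turned round CYTB (-0.0079 to 1.44) and Slc45a1 (-0.98 to 0.048). There a lone normoxia library is assumed to vary like the rest. The cause was not tested. The edgeR alternative was not run because 2 libraries hold tags scaled to the input. Depth sets the lowest level at which a peak can be called, so the absence of a peak is no measure of the level below it.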

Other observations

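Of the 12 sites held by a single 24h hypoxia PBS library and by no normoxia PBS library, 10 came from 24h hypoxia replicate 1. In 3 of 3 libraries, 11 were called in normoxia with DEX and 11 in 24h hypoxia with DEX, where 65 of the 66 common sites were called in each. They included Map2k6, a stress kinase gene, with 71.5 tags in 24h hypoxia PBS replicate 1 and 977 ± 255 in 24h hypoxia DEX (SD, n = 3), and 2 sites inside Usp2, a clock-regulated deubiquitinase gene, with 57.6 and 66.5 tags in 24h hypoxia PBS replicate 1 and 295 ± 64.0 and 81.9 ± 19.9 in 24h hypoxia DEX. Thrsp, a lipogenesis gene, and Gpd1, the glycerol-3-phosphate dehydrogenase gene, had 55.6 and 46.9 tags in their single 24h hypoxia PBS library, and 91.3 ± 31.6 and 118 ± 36.2 in 24h hypoxia DEX. The exception was a site 12387 bp from Ifngr2, with 199.6 tags in 24h hypoxia PBS replicate 1 and no peak in the DEX libraries of 24h hypoxia.

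At some sites with a low fold over input, normoxia PBS replicate 1 lay near the other libraries. Tags at Csf2ra were 476.6, 286.6 and 296.1 in 24h hypoxia PBS, against 323.5 and 444.8 in normoxia PBS replicates 1 and 3, and at Taco1 they were 121.1 and 91.3 in 24h hypoxia PBS replicates 1 and 2, against 121.0 and 97.0 in normoxia PBS replicates 1 and 3. Among 7 sites under 10-fold over input in every library that held them, each called in at least 3 of the other 5 libraries, it held no peak at 2, a mitochondrial one and one on an unplaced sequence.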
